A study of Mus musculus with 5 samples.

Results

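A set of 100 microarray probes, out of the 23473 gene probes on the array, was bright in wild-type B cells and dim in every other wild-type sample of the study. Its members were chosen from the wild-type (WT) signal alone. A probe was eligible if its WT signal stood less than 100 intensity units above the median of the blank spots on each of 4 arrays, which left 14668 probes. The 100 eligible probes with the highest WT signal on the remaining array, that of B cells, were then taken. Each signal below is the median brightness of a spot minus the median of the blank spots of that array and colour, in intensity units.

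The study compared mouse cells that carried wild-type IL7R with cells that carried a mutant form, for which the labels use the name INS, in 5 settings, with 1 array for each. Every array held both samples: WT was labelled with Cy5 and INS with Cy3. All receptors were delivered by retrovirus into Balb/c progenitors, sorting was for GFP+ cells, and the cells of each sample were pooled. The B cells were IgM+B220+ cells sorted about day 60 after WT or INS common lymphoid progenitors (CLP) had been transplanted into recipients given a sublethal dose of 4 Gy, and the labels call the INS sample leukemic.

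The other samples were these. In the CLP culture, transduced CLP grew for 5 to 7 days on OP9 stroma with stem cell factor, interleukin-7 and Flt3 ligand. In the KSL culture, transduced Kit+ Sca-1+ lineage-negative (KSL) progenitors of bone marrow or fetal liver grew for 4 to 5 days with cytokines. The T-cell acute lymphoblastic leukaemia (T-ALL) samples came from KSL cells that received intracellular Notch1 (ICN1) beside WT or INS, were placed in lethally irradiated recipients and were collected at day 30 to 40. Common myeloid progenitors (CMP) were sorted about day 40 from lethally irradiated recipients of WT or INS KSL cells that had developed a myeloid disorder. The WT T-ALL sample was therefore itself leukemic, and the WT CMP sample came from an animal group with the same diagnosis in the labels as its INS partner.

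IL7R is the alpha chain of the interleukin-7 receptor, which signals through JAK kinases and STAT5 and is needed early in mouse lymphocyte development. In the mouse, B-cell precursors in the bone marrow depend on interleukin-7, and the receptor is normally turned down as the cells mature and place an antibody of the IgM class on their surface. A mature B cell therefore differs from its progenitors in many transcripts, among them those of the B-cell receptor and its signalling chain, of antigen presentation and of the lymphoid organs' homing receptors.

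The deposited files pair no probe with a gene, and none of the 23473 identifiers was found in the gene table at hand (0 matched), so the members are named by identifier or by their place in the order of WT B-cell signal. For the same reason the labelled cell type could not be checked against B-cell markers, nor the T-ALL and CMP samples against markers of B cells. There was 1 array for each comparison, without a replicate or a dye swap, so the spread between samples was not measured and no difference below has a test. Since the WT signal chose the members, the ratio of INS to WT is a description. The INS signal did not enter the choice, although it was read on the same spots.

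In WT B cells the 100 members had signals from 285 to 14471, with a median of 701.5, against a median of 23 over all probes of the array. Their lower end was not a natural break. The last members, the 99th and the 100th, both stood at 285, and the next eligible probes, which were left out, stood at 278 and 276. On the other arrays the median WT signal of the members was 19 in the CLP culture, 12.5 in the KSL culture, 27 in T-ALL and 4 in CMP, and the brightest member there reached 99, 98, 98 and 97. These were dim but often measurable levels. A spot was called detected when it was above the mean of the blank spots by more than 2 SD. By that line 90 members were detected in the WT CLP culture, 81 in the WT KSL culture, 91 in WT T-ALL and 68 in WT CMP. Of all probes 83.2%, 79.5%, 79.1% and 71.4% were detected in these samples, so the line is a low one that most probes pass.

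**Figure D1:**
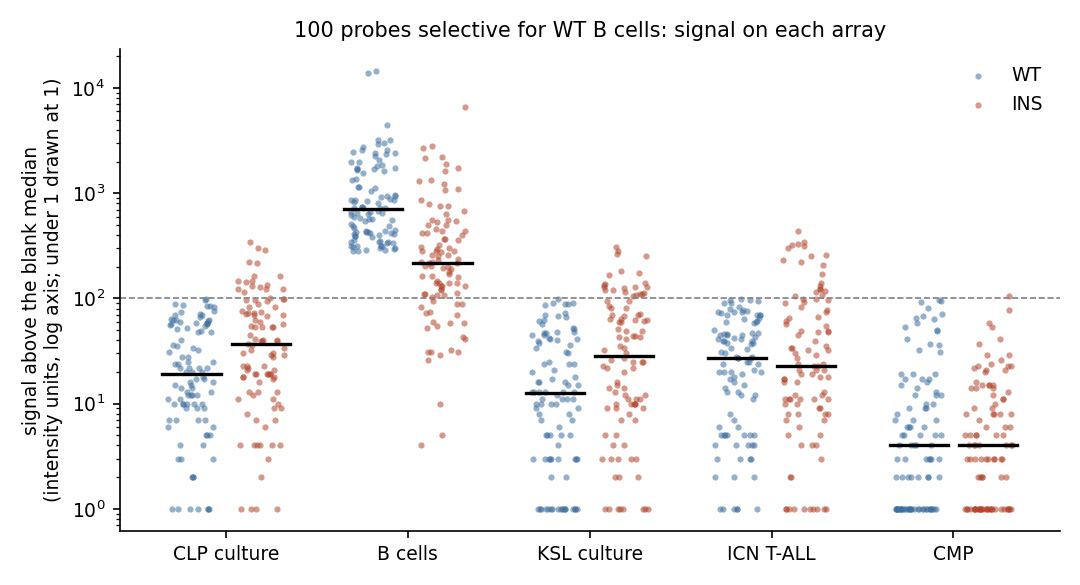
Signal of the 100 members above the blank median in WT (blue) and INS (red) samples on each of the 5 arrays, on a log axis with values under 1 drawn at 1; black bars are medians and the dashed line is the limit of 100 that the choice put on WT in the 4 other settings. On the B-cell array the INS points lie lower than the WT points, with medians of 217.5 and 701.5, and in the other settings some INS points lie above the dashed line.

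The members were lower in INS than in WT B cells almost throughout. Their INS signals ran from 4 to 6641 with a median of 217.5, where the middle of the set lay between 107.8 and 469.2. After normalization within the array, 94 of the 100 members were 2-fold or more lower in INS and 0 were that much higher, and the median log2 ratio of INS to WT was -2.51. Over all 19858 probes measured on that array the median was 0.00, with 3.97% at least 2-fold lower and 4.88% at least 2-fold higher. Because the choice used the WT signal of this array, nothing is read from the gap between 94 and 3.97%. In pooled samples such as these, fewer cells of a type and less RNA per cell cannot be told apart.

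The size of the difference was large for many members. In 62 of the 100 the WT value was at least 4-fold above the INS value, and in 28 it was at least 8-fold above. Lower did not mean absent: 98 members were still detected in INS B cells, and 77 had an INS signal of 100 or more, a level reached by 37.5% of all probes and by 6.05% of the 14668 eligible ones. Across the 100 members the WT and INS signals on this array rose together, with a Pearson correlation of 0.65 and a Spearman correlation of 0.65 on the log2 scale, computed with signals under 10 set to 10. The points share spots, array and hybridization, so this is a description. It shows that the order of the members was in part kept in INS.

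**Figure D2:**
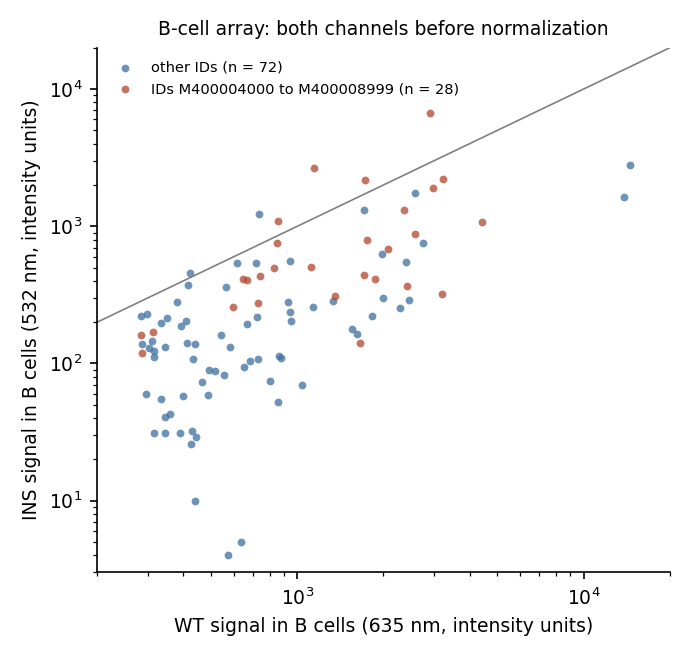
INS signal against WT signal of each member on the B-cell array before normalization, both in intensity units on log axes; the grey line marks equal signals and red points are the 28 members with identifiers from M400004000 to M400008999. Of the 100 points, 94 lie below the line, and 4 of the 6 above it are red.

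Before any normalization the same order was seen: 6 members had an INS signal above their WT signal. The INS channel of this array was the brighter one, since over probes detected in both colours the unnormalized log2 ratio had a median of 0.69, and for the members it was -1.82. Loess normalization, which fits the offset separately at each brightness level, lowered the members' log2 ratios by a median of 0.62 more than centring alone. With the ratios only centred on the median of the array, the members' median was -1.82 and 73 of them passed the 2-fold line.

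The brightest member had a WT signal of 14471 and an INS signal of 2799, a normalized difference of 9.77-fold. The second had 13897 in WT and 1642 in INS, a log2 ratio of -4.00. The third had 4403 and 1066, 8.12-fold lower. These 3 stood far above their levels elsewhere in WT: the first was at 14 in both the CLP culture and T-ALL, and the second reached at most 4 on any other array. The third differed from them in that it was at 96 in WT T-ALL, just under the limit of the choice.

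The lowest ratio of INS to WT belonged to M400007884, the fifth by WT signal, with 3212 in WT B cells and 319 in INS B cells. Its log2 ratio of -4.15 is a 17.7-fold difference, and it ran from -4.39 to -3.38 over the other ways of processing. Next was M300000431, with 634 in WT and 5 in INS, where its spot was not detected. A spot at background gives only a bound, which in the main processing put the WT level at least 16.4-fold above INS. The log2 ratio of M300000431 ran from -7.49 to -3.71 over the ways of processing, so the bound holds for the main one only. One further member was not detected in INS B cells, with 573 in WT and 4 in INS. It was at least 14.8-fold apart in the main processing. Each bound sets WT against the lowest INS level that counts as detected. The third lowest ratio, -4.05, came from a member with 1656 in WT and 141 in INS.

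The remaining 6 members stayed within 2-fold in B cells, and they are the 6 whose INS signal was above the WT signal before normalization. The highest ratio was that of the seventh member by WT signal, with 2911 in WT and 6641 in INS and a log2 ratio of 0.20, which turned to -0.13 with local background subtracted and to -0.07 with loess run within printing blocks. Next came the 30th member, with 1140 in WT and 2670 in INS and a log2 ratio of 0.15, which stayed above 0 in every way of processing tried and reached 0.92 with median centring. The 46th member had 732 in WT and 1226 in INS, with a log2 ratio of -0.32 that became 0.44 with median centring and 0.33 with the blank level subtracted. None of the 3 passed 2-fold in either direction in any way of processing tried.

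The members are given next by WT B-cell signal, which chose them and is also the lower term of the ratio, so that no trend is read from the order. Among the 16 members with a WT signal of 2000 or more the median log2 ratio was -2.93, and 15 of them passed the 2-fold line. The 17 members from 1000 to under 2000 also had a median of -2.93, with 15 lower. The 31 members from 500 to under 1000 had -2.39, with 29 lower. The 36 members under 500 had -1.92, with 35 lower. The background correction adds an offset of 50 to both colours, which by construction shrinks the ratio of dim spots most. Most members were lower in INS in each of the 4 ranges.

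Identifiers fell into 3 series by their first digit. Series M2 gave 26 members, series M3 gave 25 and series M4 gave 49, against 34.23%, 28.99% and 36.79% of all probes and 27.34%, 29.65% and 43.01% of the eligible ones. In B cells the median log2 ratio was -2.55 in M2, where 26 of 26 were at least 2-fold lower, -2.83 in M3, where 24 of 25 were, and -1.93 in M4, where 44 of 49 were. One stretch of the M4 series, from M400004000 to M400008999, was set apart after its values had been seen. It held 28 of the 100 members and 10 of the 20 brightest, where it holds 12.03% of all probes and 14.45% of the eligible ones. The genes behind these probes could not be named.

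The 28 members of that stretch were brighter in both B-cell samples. Their median signal was 1504 in WT and 469.5 in INS, against 559 in WT and 143 in INS for the other 72. Their normalized difference was smaller, with a median log2 ratio of -1.75 against -2.64, and 24 of the 28 were at least 2-fold lower against 70 of the 72. Since the members were picked on brightness and the stretch on its values, the contrast has no test.

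**Figure D3:**
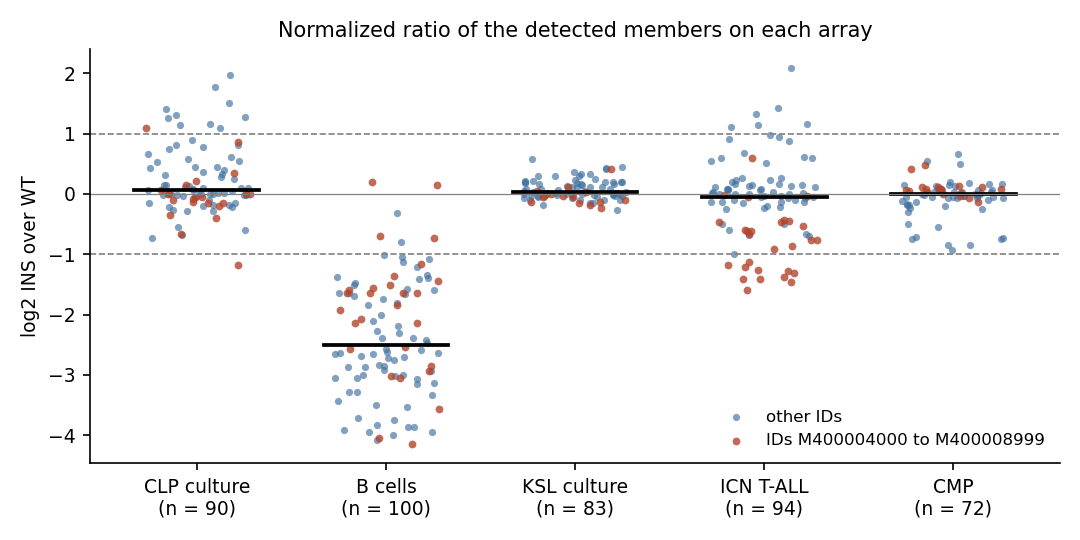
Normalized log2 ratio of INS to WT for the members detected in at least one colour on each array; black bars are medians, dashed lines mark 2-fold, and red points are identifiers from M400004000 to M400008999. The B-cell median lies at -2.51, the other medians lie between -0.04 and 0.06, and in T-ALL the red points lie mostly below 0.

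Outside B cells the members showed no common direction. Of those detected in at least one colour, the median log2 ratio was 0.06 in the CLP culture (90 members), 0.03 in the KSL culture (83), -0.04 in T-ALL (94) and -0.00 in CMP (72). All measured probes had medians between -0.02 and 0.01 on these arrays. With an offset of 50 and WT signals capped at 100, a lower INS value could only show as a small ratio there, while a higher one was not limited.

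In the CLP culture 11 of the 90 measured members exceeded 2-fold in favour of INS, as did 5.04% of all measured probes, and 1 exceeded it in favour of WT, as did 0.854%. The 11 had WT signals from 5 to 85 and INS signals from 89 to 340. M200015911 had the highest ratio, with 25 in WT and 303 in INS, a log2 ratio of 1.96 or 3.89-fold. In B cells the same probe was the other way round, with 297 in WT and 60 in INS. The next highest was the 11th member by WT B-cell signal, with 17 in WT and 222 in INS in culture, and with 2454 in WT and 292 in INS B cells. The count of 11 moved with the processing: it was 17 with an offset of 10, 20 with local background subtracted, 25 in the authors' deposited table and 30 with the blank level subtracted, and 6 with a limit of 50 in the choice. All 11 were past 2-fold in the opposite direction in B cells, with B-cell log2 ratios from -4.05 to -1.59, which is near the 94 of 100 that holds for the whole set. The 1 lower member had 97 in WT and 19 in INS, a log2 ratio of -1.18.

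In the KSL culture 0 of the 83 measured members passed 2-fold in either direction. That array had few such probes at all, 0.161% higher and 0.0208% lower. The members' log2 ratios lay between -0.26 and 0.58. The brightest INS signal was 311, from a member with 87 in WT and a log2 ratio of 0.58, which in B cells had 1136 in WT and 259 in INS.

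The CMP array was the dimmest for the members. It was dim as a whole, with medians of 7 in WT and 6 in INS over all probes. Of the 100 members 72 were detected in either colour, and of all 23473 probes 17286 were, which is a similar share. Of these 72 members 0 passed 2-fold, where 3.03% of measured probes were higher and 3.12% lower. The log2 ratios lay between -0.93 and 0.67. The brightest INS signal was 106, from a member with 58 in WT, and it was the 1 member at 100 or more.

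Because the limit of 100 was put on WT and not on INS, the INS signal on the 4 other arrays shows how selective the members were in the mutant samples. An INS signal of 100 or more was reached by 18 members in the CLP culture, 22 in the KSL culture, 20 in T-ALL and 1 in CMP. Among all probes that level was reached by 36.2%, 41.5%, 38.8% and 15.9%, and among the eligible probes by 3.78%, 9.27%, 7.62% and 0.423%. The members that reached it were dim but not at background in WT of the same array, with median WT signals of 54, 61.5, 53.5 and 58. Without normalization the INS colour was above the WT colour in 76 members in the CLP culture, 86 in the KSL culture, 63 in T-ALL and 43 in CMP, and this share moves with the general brightness of the INS channel, whose unnormalized log2 ratio over probes detected in both colours had medians of 0.29, 0.99, 0.87 and 0.00.

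In T-ALL members were found past 2-fold on both sides. Of the 94 measured, 12 passed the line downwards and 6 upwards, as did 0.599% and 1.82% of all measured probes. These counts depended on the settings. With a limit of 50 in the choice there were 1 lower and 4 higher. WT signals held under 50, beside an offset of 50, left almost no room for a 2-fold fall. Nothing is therefore read from that change of balance. A limit of 200, which leaves more room, gave 26 lower and 10 higher. An offset of 10 gave 28 lower and 14 higher, the values in the authors' deposited table gave 27 and 18, blank subtraction 30 and 18, and local background subtraction 36 and 13. Without any limit on WT T-ALL 27 were lower and 7 higher, and median centring gave 12 and 10.

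The 12 lower members had WT T-ALL signals from 37 to 98, with a median of 77, and INS signals from -3 to 29, with a median of 12. All 12 belong to series M4 and 11 of them to the stretch described above. In 11 of the 12 the B-cell ratio was at least 2-fold lower as well, near the share in the whole set. The lowest ratio was that of the third-brightest member, with 96 in WT and 10 in INS, a log2 ratio of -1.59 or 3.01-fold, and the next was that of the 16th, with 98 and 19.

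The 6 higher members in T-ALL came from series M2 and M3, with 0 from M4. Their INS signals ran from 209 to 435 and their WT signals from 5 to 82. M200001527 had the highest ratio, with 5 in WT and 330 in INS, a log2 ratio of 2.08 or 4.24-fold. It was also higher in the INS CLP culture, with 10 in WT and 98 in INS, and lower in INS B cells, with 2583 in WT and 1735 in INS. The next highest was the 80th member, with 12 in WT and 209 in INS, which was likewise higher in the INS CLP culture, with 85 in WT and 340 in INS. In all, 3 of the 6 were among the 11 that were higher in the culture, and 5 of the 6 were past 2-fold in favour of WT in B cells.

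The 28 members of the stretch from M400004000 to M400008999 had a median signal of 47.5 in WT T-ALL and 11.5 in INS T-ALL, and in 24 of the 28 the INS signal was not above the WT signal although the INS channel was the brighter one on this array. The median log2 ratio was -0.77, with 11 members at least 2-fold lower and 0 higher. All 11 were among the 15 with a WT T-ALL signal of 40 or more, and the 13 dimmer ones gave 0 lower. The offset of 50 left the dimmer ones little room to pass 2-fold downwards, so nothing is read from this split. With an offset of 10, 23 of the 28 were lower. That is more than the 15 brighter ones, so dimmer ones were among them. The members with an INS signal above WT included a member with 25 in WT and 116 in INS, a log2 ratio of 0.60. The other 72 members had medians of 19.5 in WT and 40 in INS, the INS signal was not above WT in 13 of them, and over the 66 measured the median log2 ratio was 0.07, with 1 lower and 6 higher. The ways of processing moved these counts but kept their order: in the stretch between 11 and 23 of the 23 to 28 measured members were lower, and among the others between 1 of 66 and 16 of 54. The share lower was greater in the stretch each time. These are the same spots of 1 array, and the stretch was set apart after its values were seen, so the repeated order adds no support.

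The same stretch is also a position on the array. All 28 of its members were printed in rows 7 and 8 of their blocks, as were 92.5% of its 2824 probes, and so were all 12 of the members lower in INS T-ALL. The 10 members in rows 7 and 8 with other identifiers had 1 lower among 9 measured, with a median log2 ratio of -0.00, and the 57 measured members in other rows had 0 lower. Over all probes of the array measured in T-ALL, 2.26% of the stretch in rows 7 and 8 were lower. In other rows 2 of its 151 measured probes were, or 1.325%. Of other identifiers, 0.687% were lower in rows 7 and 8 and 0.360% elsewhere. Among the members of the stretch, identifier and print row cannot be told apart. Over all 2185 measured probes of the stretch, 2.20% were lower and 1.05% higher, with a median log2 ratio of -0.01, so the ratios of its 28 members do not hold for the stretch at large.

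Across the 28 members the WT B-cell and WT T-ALL signals had a Pearson correlation of 0.80 and a Spearman correlation of 0.86 on the log2 scale, and the B-cell signal was a median of 34.3 times the T-ALL signal. Over the other 72 members the correlations were -0.25 and -0.20. The rule used both of these WT signals, one to rank and one with a ceiling of 100, and the stretch was set apart after this pattern was seen, so the values describe these probes and support nothing further. Between WT B cells and INS T-ALL the correlations over the 28 members were -0.09 and 0.12, but 10 of the 28 INS T-ALL signals were under the floor of 10, against 1 of the 28 in WT T-ALL, so that spots at background limit this value.

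The WT signals of the 28 members on the remaining arrays were held under 100 by the choice. Their medians were 13.5 in the CLP culture, 3 in the KSL culture and 1.5 in CMP, and the highest in the CLP culture was 97. Whether the WT T-ALL sample held B cells was not tested, since no probe could be named as a B-cell marker.

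**Figure D4:**
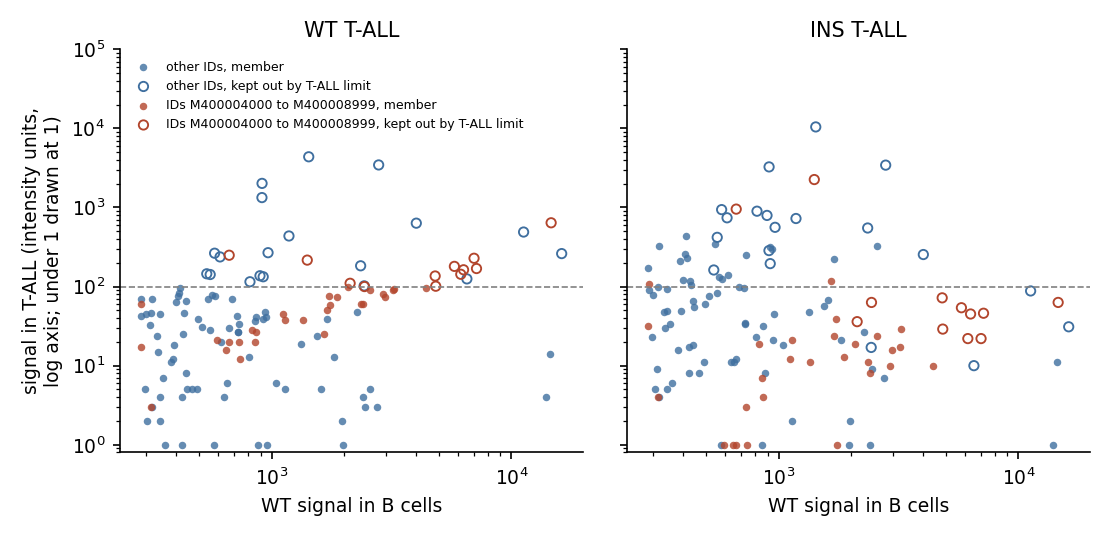
Signal in WT T-ALL (left) and INS T-ALL (right) against signal in WT B cells, in intensity units on log axes with values under 1 drawn at 1; filled points are the 100 members, open points the 31 probes kept out by the T-ALL limit alone, red the identifiers from M400004000 to M400008999, and the dashed line the limit of 100. In WT T-ALL the filled red points climb with the WT B-cell signal, with a correlation of 0.80, and in INS T-ALL 10 of the 28 lie under 10.

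The limit of 100 on WT T-ALL cut through this pattern. Without it, and with the other 3 limits kept, 31 other probes would have been among the 100. Their WT B-cell signals ran from 537 to 16198 with a median of 2352, 2 of them were brighter than the brightest member, and they held 8 of the 10 highest places of both sets together. In B cells 29 of the 31 passed the line downwards and 0 upwards, with a median log2 ratio of -2.34. The brightest had 16198 in WT and 3658 in INS B cells, and 261 in WT and 31 in INS T-ALL.

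Of these 31 probes, 12 belong to the stretch. Their WT T-ALL signals ran from 100 to 640 with a median of 166, their median in INS T-ALL was 50, and 9 of the 12 were 2-fold lower there and 1 higher. Their WT B-cell signal was a median of 31.4 times the WT T-ALL signal, where the members of the stretch had 34.3. Both groups were sorted by these WT signals, and the stretch was set apart after its values were seen, so nothing is read from how close the values are. The 19 others had a median of 3.91 times, and 6 of them were lower and 2 higher in INS T-ALL. The probes of the stretch that the limit left out were the brighter ones on the whole, with a median WT B-cell signal of 5310 against 1504 for those kept.

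The same rule was run on the WT signal of the other arrays, and 3 of these sets were compared, each on the array that chose it. The set selective for the WT KSL culture was left out of the comparison. On their own arrays, 26 of 100 probes selective for the WT CLP culture were 2-fold lower in INS and 18 higher, with a median log2 ratio of -0.59. Of all measured probes on that array 0.854% were lower and 5.04% higher. For WT T-ALL 14 were lower and 5 higher, with a median of 0.01, against 0.599% and 1.82% of all measured probes. For WT CMP 11 were lower and 4 higher, with a median of -0.01, against 3.12% and 3.03%. The B-cell set had 94 lower and 0 higher, against 3.97% and 4.88%. These ratios share their WT side with the choice, and the sets differ in brightness, with a median WT signal of 701.5 in the B-cell set against 244, 346.5 and 144.5, so the counts are set side by side without a reading. The rule lets no probe enter both the B-cell set and another set, since members are at 285 or more in WT B cells and the other sets under 100. The absence of shared probes (0 shared) was thus fixed in advance. The probes selective for the WT CLP culture were held under 100 in WT B cells by the choice, which leaves little room for a lower INS value. In B cells 50 of 96 measured ones passed 2-fold in favour of INS and 0 in favour of WT. Of all measured probes on that array, 4.88% passed it in favour of INS and 3.97% in favour of WT.

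**Figure D5:**
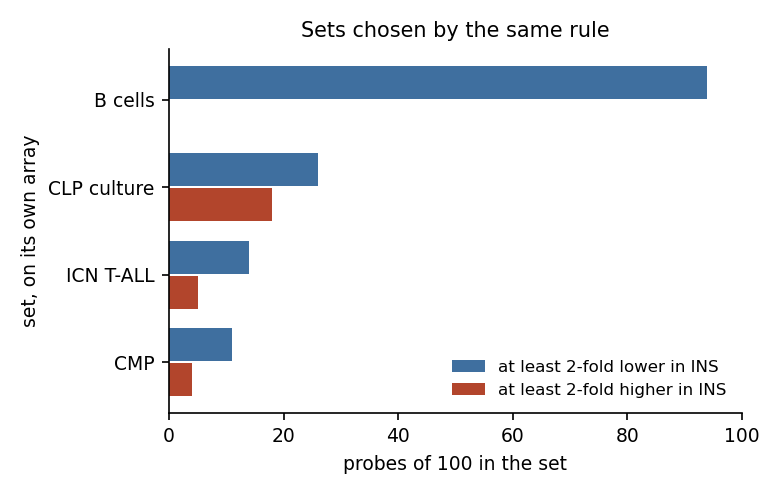
Number of probes at least 2-fold lower (blue) or higher (red) in INS on the array whose WT signal chose the set, for 4 sets of 100 probes chosen by the same rule. The B-cell set has 94 lower and 0 higher, and the other sets have 26 and 18, 14 and 5, and 11 and 4. Over all measured probes of these arrays, in the same order, 3.97%, 0.854%, 0.599% and 3.12% were lower. The shares higher were 4.88%, 5.04%, 1.82% and 3.03%.

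Turning the rule round, with the INS signal in place of the WT signal on all arrays, gave another 100 probes out of 12815 eligible ones, selective for INS B cells. This set was added after the values had been seen. It shared 35 probes with the members, which is 35% of each set, and 29 of the shared probes belong to series M4 and 23 to the stretch. Its INS B-cell signals ran from 214 to 6736. The other 65 members were missing from it for one or both of 2 reasons: 49 had an INS B-cell signal under 214, and 38 had an INS signal of 100 or more on another array. In B cells 34 of the INS-selective probes passed 2-fold upwards and 48 downwards. Of the 65 that are not members, 34 were higher and 17 lower. A choice on a bright INS signal favours high ratios as a choice on a bright WT signal favours low ones, so the directions of the 2 sets are not compared.

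The quality of the spots was looked at on the B-cell array. Of the 100 members 0 carried a flag, they lay in 23 of the 24 printing blocks with at most 9 in a block, and no pair of members lay side by side (0 adjacent pairs). Rows 7 and 8 of the blocks held 38 of the 100, where they hold 21.3% of all probes. A neighbouring spot was brighter in 37 cases, of which 34 belonged to members below the 2-fold line, and more than 10 times brighter in 3. The 1102 spots without a probe reached at most 8 in WT and 14 in INS. The median coefficient of variation of pixels within a member's spot was 0.13. The control spots on the 5 arrays, 24 of each kind, had SDs of the log2 ratio from 0.07 to 0.13, which measures variation within an array and not between samples. The mean log2 ratios of these controls ran from -0.97 to 0.93 over the arrays, and on the B-cell array they were -0.76 and -0.97. What set these means was not tested.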

How the data were processed

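Per the labels' protocols, RNA was amplified with an amino allyl kit before the dyes, Cy5 for WT and Cy3 for INS, were coupled. The deposited scanner values are linear intensities, 1 for each colour and spot, and the local background has columns of its own. Per the file headers, ratios are Cy3 over Cy5 and no normalization or background step is recorded. Image software: not given in the sources used here. Values in the authors' deposited table are log2 ratios with medians of -3.8e-05 in the CLP culture, -4.8e-05 in B cells, 0 in the KSL culture, -1.8e-05 in T-ALL and 4.3e-06 in CMP, so its columns were centred. Across probes detected in both colours it correlated at 0.62 to 0.95 with log2 INS over WT after blank subtraction. This gives its direction but not its scale, and its background step stays unknown.

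Foreground medians were corrected with normexp (offset 50, no local background) and normalized by loess within each array (span 0.3, control spots at weight 0) with limma 3.58.1 in R 4.3.3. Counts and medians came from Python 3.11.15 with pandas 2.3.3. A spot was detected above the mean of 2736 blank spots, trimmed by 5% at each end, plus 2 SD; a probe was measured when detected in at least one colour. Ratios were read at a 2-fold line, with no test, since each comparison has 1 array. The choice of members was checked by planting probes brighter than any member among the real WT signals, so their return was fixed in advance. The normalization was checked on simulated arrays, with equal numbers of rises and falls on probes with a WT signal over 500. It was not checked for signals like those of the 36 members under 500, or for a set that falls almost throughout.

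The members and lists were chosen with earlier results of these data known. The probes to be named were the 3 brightest in WT B cells, the 3 highest and 3 lowest B-cell ratios, the brightest INS signals on other arrays and the 2 on each side of the limit, with at most 2 identifiers for each direction. The stretch of identifiers, the T-ALL and culture counts, the mirrored set and the counts by print row were added after values were seen. The gene lists prepared for B cells and for receptor signalling could not be used without gene names, and no probe sequence is printed. Alternatives were median centring, local background, blank subtraction, an offset of 10, loess within blocks, the deposited table, other limits and set sizes.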

Additional observations from a re-analysis of the deposited data

Results flagged for a closer look

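Opposite directions in different settings were seen for 2 groups of members. In the first, 11 members passed 2-fold in favour of WT in B cells and in favour of INS in the CLP culture. In the second, 5 members passed it in favour of WT in B cells and in favour of INS in T-ALL. Of all 100 members, 94 passed it in favour of WT in B cells, so nearly any member higher elsewhere would be counted here. Each setting had 1 array, and the difference between settings was not tested.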

How the results depend on the processing

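No paired analysis was possible because each group has 1 sample. Of 165 alternative values, 119 stayed within the spread allowed, 46 moved and 0 reversed. Counts were compared as counts whatever the size of the set, and medians near 0 could change sign without being called reversed. The tally is therefore not a measure of stability. The count of members at least 2-fold higher in INS B cells was 0 throughout, the B-cell median lay between -2.92 and -1.57, and between 73% and 94% of each set was at least 2-fold lower. The alternatives on T-ALL and CLP culture counts, and those without the T-ALL limit, were chosen after seeing the data.

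For B cells, the median log2 ratio moved to -1.57 with 200 members, -1.78 with a limit of 50 and -1.82 with median centring, and the count lower moved with set size, to 160 of 200 and 45 of 50. In T-ALL the median moved to -0.80 with local background subtracted. It was -0.44 with 50 members, 0.00 with 200 members and 0.03 in the authors' table, against -0.04 in the main processing. The count lower in T-ALL was 12 of 48 measured with 50 members and 12 of 189 with 200, against 12 of 94. These stayed within the spread allowed, although the share changed with set size. Members higher in the INS CLP culture numbered 6 of 50, 6 with a limit of 50, 25 in the authors' table, 30 with the blank level subtracted, 20 with local background and 17 with an offset of 10. Members higher in INS T-ALL numbered 18 in the authors' table, 18 with the blank level subtracted, 10 with a limit of 200, 13 with local background, 10 with median centring and 14 with an offset of 10. Members lower in INS T-ALL numbered 27 in the authors' table, 30 with the blank level subtracted, 26 with a limit of 200, 1 with a limit of 50, 36 with local background, 28 with an offset of 10 and 27 without the T-ALL limit.

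An INS signal of 100 or more was reached in B cells by 132 of 200 members, 47 of 50, and 48 with a limit of 50. In the CLP culture it was reached by 39 of 200, 7 of 50, 33 with a limit of 200, 7 with a limit of 50 and 6 with local background. In the KSL culture it was reached by 67 of 200, 5 of 50, 5 with a limit of 50 and 7 with local background. In T-ALL it was reached by 58 of 200, 6 of 50, 9 with a limit of 50 and 11 with local background. In CMP it was reached by 3 of 200, 0 of 50, 3 with a limit of 200, 0 with a limit of 50 and 0 with local background. The shares moved with set size as well as the counts, and the cause of these moves was not tested. Signals under 100 lie close to background, where the offset and the background step set the ratio, and the single array of each comparison limits the precision of all values.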
